A study of Homo sapiens with 4 samples.

Results

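The 37 genes of the human mitochondrial chromosome were followed in HCC1954 cells, an established HER2-amplified breast cancer line, with and without silencing of ZDHHC15, a palmitoyltransferase that attaches palmitate to cysteines of other proteins. The members were all rows of the count table placed on chromosome MT, 37 of 58735 genes, and they comprise 13 protein genes, 2 ribosomal RNA (rRNA) genes and 22 transfer RNA (tRNA) genes. The shCON group held 2 samples of cells with a scrambled hairpin, and the shZDHHC15 group 2 samples of cells with a hairpin against ZDHHC15. All 4 samples came from the same line in RPMI-1640 medium with serum, carried GIPZ hairpin vectors and gave total RNA for libraries of the NEBNext Ultra kit. The labels call the knockdown stable in one place, and in another describe transient transfection with harvest after 36 h. They do not say whether the samples of a group were separate cultures, or whether both shZDHHC15 samples carried the same hairpin, so p-values measure only the spread between these samples, which may be technical.

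The mitochondrial chromosome is a small circle read from both strands into long precursor RNAs. Most of its protein and rRNA genes are separated by tRNA genes, and excision of the tRNAs from the precursor releases the RNAs between them. One strand's precursor carries both rRNAs, most messenger RNAs and 14 tRNAs, and is here called the heavy-strand transcript. The light-strand transcript carries 8 tRNAs and 1 protein gene, MT-ND6. The proteins are core membrane subunits of respiratory complexes I, III, IV and V, all of which are completed with subunits encoded in the nucleus, and complex II has none from this chromosome. Levels of these RNAs therefore depend on how each precursor is made, cut and degraded as well as on the number of genomes.

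Library totals were 18496026 and 17560982 counts in shCON and 18207192 and 19118704 in shZDHHC15. Values are CPM, counts scaled to a library of 1000000 with trimmed-mean (TMM) factors, in the order sample 1 and sample 2 of each group, and 3 counts, the limit that a count of 0 allows, are worth 0.153 to 0.178 CPM. Such limits and the intervals given here cover counting error only. ZDHHC15 itself had 17617 and 15716 counts in shCON and 0 in both shZDHHC15 samples, a complete loss of counts where the labels speak of a knockdown. All 7 epithelial and HER2 markers of the line were detected in every sample. In shZDHHC15, 5 of them fell and 1 rose, where 20.3% of all genes tested fell and 21.7% rose. Their summed level was 16014 and 17382 CPM in shCON and 9551 and 9734 CPM in shZDHHC15. ERBB2 had 92598 to 101910 counts, while the leukocyte genes CD3E and MS4A1 were at 0 in all 4. The summed level of 5 leukocyte markers was 0.830 to 0.932 CPM in shCON and 1.48 to 1.93 CPM in shZDHHC15, and that of 5 fibroblast markers was 5.81 to 7.17 and 8.51 to 11.5 CPM, with LUM at 0 in all 4. In each of these lists the 1 gene tested rose, CD14 from 9 and 5 to 25 and 22 counts (log2 fold change 1.61, adjusted p = 0.0158) and COL1A1 from 100 and 120 to 214 and 161 counts (0.65, adjusted p = 0.0232). The hormone receptor genes ESR1 and PGR together measured 8.89 and 6.11 CPM in shCON and 16.5 and 15.5 CPM in shZDHHC15. Of these 2, 1 was tested and passed as higher (log2 fold change 1.09). The bearing of these marker changes on the mitochondrial values was not tested.

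Mitochondrial genes took 2.18% and 2.07% of all counts in shCON and 2.58% and 2.63% in shZDHHC15. The mean share was 2.13% ± 0.0738 in shCON and 2.61% ± 0.0360 in shZDHHC15 (SD, n = 2 each), and the groups did not overlap. An exact two-sided permutation test gave p = 0.33, the smallest that 2 samples against 2 can give. In bulk RNA, more mitochondrial RNA per cell and a different mixture of cells cannot be told apart. Of the 37 genes, 25 had enough counts to be tested among 15817 genes, namely all 13 protein genes, both rRNAs and 10 tRNAs. Of these 25, 13 rose in shZDHHC15 and 2 fell at an adjusted p under 0.05, where 21.7% of all genes tested rose and 20.3% fell. Groups did not overlap for 19 of the 25, 16 higher and 3 lower, against 72.5% of all genes tested in either direction. The tRNA genes MT-TT and MT-TR passed the filter on low counts only through the shZDHHC15 samples, and without them 12 of 23 rose and 2 fell. The median log2 fold change was 0.06 for the protein genes and 0.82 for the rRNAs, against 0.02 for all genes tested. The protein median ran from -0.17 to 0.17 over the other scalings and the fits leaving out 1 sample. For tRNAs it was 1.10 over the 10 tested, 0.99 without MT-TT and MT-TR, and 0.59 over the tRNA genes without the filter.

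**Figure D1:**
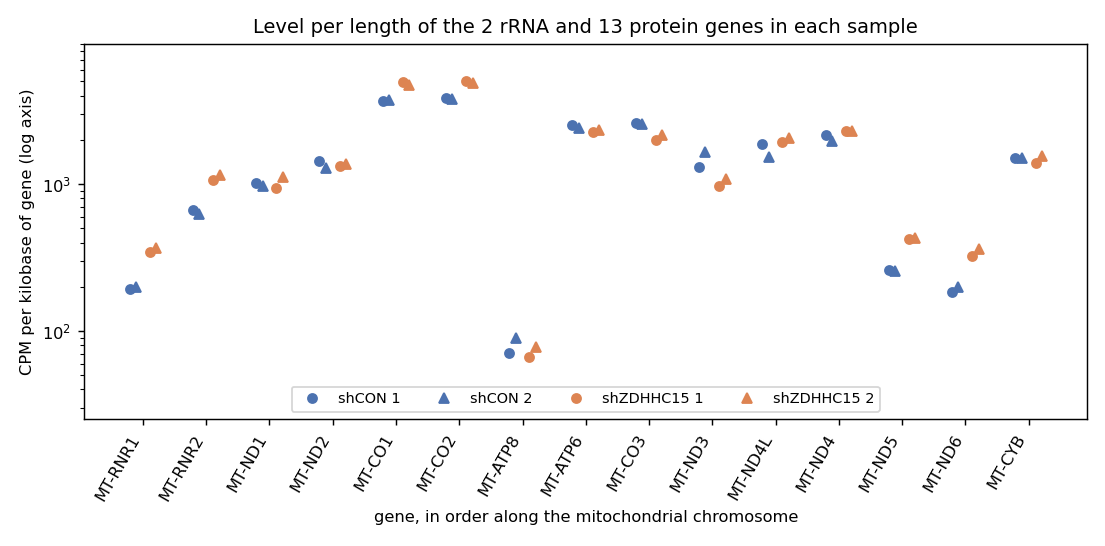
Level of each mitochondrial rRNA and protein gene in CPM per kilobase of gene (log axis), in order along the chromosome, with 1 point for each of the 2 shCON and 2 shZDHHC15 samples. MT-CO1 and MT-CO2 are the highest in every sample, and MT-RNR1, MT-RNR2, MT-ND5 and MT-ND6 show the clearest separation of the groups.

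Both rRNAs of the mitochondrial ribosome rose. MT-RNR1, the RNA of the small ribosomal subunit at positions 648 to 1601, measured 183 and 190 CPM in shCON and 327 and 352 CPM in shZDHHC15. Its log2 fold change was 0.87 (SE 0.0902, adjusted p = 3.15e-06). MT-RNR2, the RNA of the large subunit at positions 1671 to 3229, measured 1039 and 969 CPM in shCON and 1655 and 1803 CPM in shZDHHC15, a log2 fold change of 0.78 (SE 0.0879, adjusted p = 6.62e-06). Every shZDHHC15 sample lay above every shCON sample for both. The ratio of MT-RNR2 to MT-RNR1 counts was 5.68 and 5.11 in shCON and 5.06 and 5.13 in shZDHHC15, values that overlap. Their combined share of mitochondrial counts was 5.53% and 5.37% in shCON and 7.85% and 8.40% in shZDHHC15 (exact permutation p = 0.33).

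Complex I, the NADH dehydrogenase that passes electrons to ubiquinone, has 7 mitochondrial subunit genes. Of these, 2 rose, 1 fell and 4 did not pass the test, where 21.7% of all genes tested rose and 20.3% fell. Their median log2 fold change was 0.16. MT-ND5, which encodes the largest proton-pumping subunit and lies at positions 12337 to 14148, measured 468 and 466 CPM in shCON and 761 and 783 CPM in shZDHHC15. It rose 1.65-fold (log2 fold change 0.73, SE 0.0846, adjusted p = 9.37e-06), and the samples within each group differed little. MT-ND6, the light-strand gene at positions 14149 to 14673, measured 96.8 and 104 CPM in shCON and 169 and 190 CPM in shZDHHC15. It rose 1.79-fold (log2 fold change 0.84, SE 0.0986, adjusted p = 1.00e-05). MT-ND5 and MT-ND6 meet end to end on opposite strands with a gap of 0 bases, and the number of MT-ND6 counts per MT-ND5 count was 0.207 and 0.223 in shCON and 0.222 and 0.242 in shZDHHC15. Those ratios overlap between the groups. Whether counting used the strand is not given in the sources used here, so reads from one of these genes and from RNA opposite the other cannot be told apart.

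MT-ND3, a small membrane subunit of complex I at positions 10059 to 10404, was the member that fell most. It measured 452 and 569 CPM in shCON and 336 and 372 CPM in shZDHHC15, so the groups stood apart although the shCON samples were spread widely. Its log2 fold change was -0.53 (SE 0.108, adjusted p = 0.00125). MT-ND1 measured 972 and 928 CPM in shCON and 901 and 1073 CPM in shZDHHC15, and MT-ND2 1498 and 1345 against 1374 and 1436 CPM. For both of these core subunits the groups overlapped, with log2 fold changes of 0.06 (SE 0.0956, adjusted p = 0.679) and -0.02 (SE 0.0879, adjusted p = 0.899). MT-ND4L measured 553 and 457 CPM in shCON and 578 and 610 CPM in shZDHHC15, with a log2 fold change of 0.23 that did not pass (SE 0.099, adjusted p = 0.0723). MT-ND4 measured 2954 and 2700 CPM against 3152 and 3183 CPM, with a log2 fold change of 0.16 (SE 0.0851, adjusted p = 0.137). Leaving out 1 sample at a time gave 0.09 to 0.35 for MT-ND4L, which passed without shCON sample 1 (adjusted p = 0.0022), and 0.09 to 0.20 for MT-ND4. The MT-ND4L and MT-ND4 reading frames share 7 bases of one messenger RNA, so reads over their junction cannot be assigned to either alone, and in both genes the shZDHHC15 samples lay above the shCON samples.

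Complex III, the cytochrome bc1 complex, has 1 mitochondrial subunit gene, MT-CYB, which encodes cytochrome b. It measured 1711 and 1720 CPM in shCON and 1588 and 1760 CPM in shZDHHC15. The groups overlapped, and its log2 fold change was -0.04 (SE 0.0865, adjusted p = 0.775).

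Complex IV, cytochrome c oxidase, has 3 mitochondrial subunits that form its core, and their genes did not move together. MT-CO1, the subunit that holds the oxygen-reducing centre, lies at positions 5904 to 7445 and measured 5696 and 5768 CPM in shCON and 7688 and 7291 CPM in shZDHHC15. It rose 1.31-fold (log2 fold change 0.39, SE 0.0827, adjusted p = 0.00175). MT-CO2, the subunit that takes electrons from cytochrome c, lies at positions 7586 to 8269 and measured 2634 and 2613 CPM in shCON and 3442 and 3339 CPM in shZDHHC15. It rose 1.29-fold (log2 fold change 0.37, SE 0.0822, adjusted p = 0.00224). MT-CO3, the third core subunit at positions 9207 to 9990, instead fell, from 2030 and 2012 CPM in shCON to 1560 and 1687 CPM in shZDHHC15. Its log2 fold change was -0.32 (SE 0.0847, adjusted p = 0.00781). The ratio of MT-CO2 to MT-CO3 counts, which needs no scaling between libraries, was 1.30 in both shCON samples and 2.21 and 1.98 in shZDHHC15. Without shZDHHC15 sample 1, MT-CO1 at 0.35 (adjusted p = 0.0531) and MT-CO3 at -0.26 (adjusted p = 0.164) did not pass.

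Complex V, the ATP synthase, has 2 mitochondrial subunit genes and neither passed the test. MT-ATP6, the subunit of the proton channel, measured 1723 and 1652 CPM in shCON and 1543 and 1583 CPM in shZDHHC15, with a log2 fold change of -0.11 (SE 0.0832, adjusted p = 0.308). MT-ATP8, a small membrane subunit whose gene shares 46 bases with MT-ATP6, measured 14.8 and 18.6 CPM in shCON and 13.7 and 16.1 CPM in shZDHHC15, a log2 fold change of -0.16 (SE 0.157, adjusted p = 0.446). MT-ATP6 was lower in both shZDHHC15 samples, while MT-ATP8 overlapped between the groups. Both reading frames lie on one messenger RNA, yet only 0.00856 to 0.0113 MT-ATP8 counts were recorded per MT-ATP6 count over the 4 samples. How reads in shared bases were counted is not given in the sources used here, so the level of MT-ATP8 is uncertain.

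**Figure D2:**
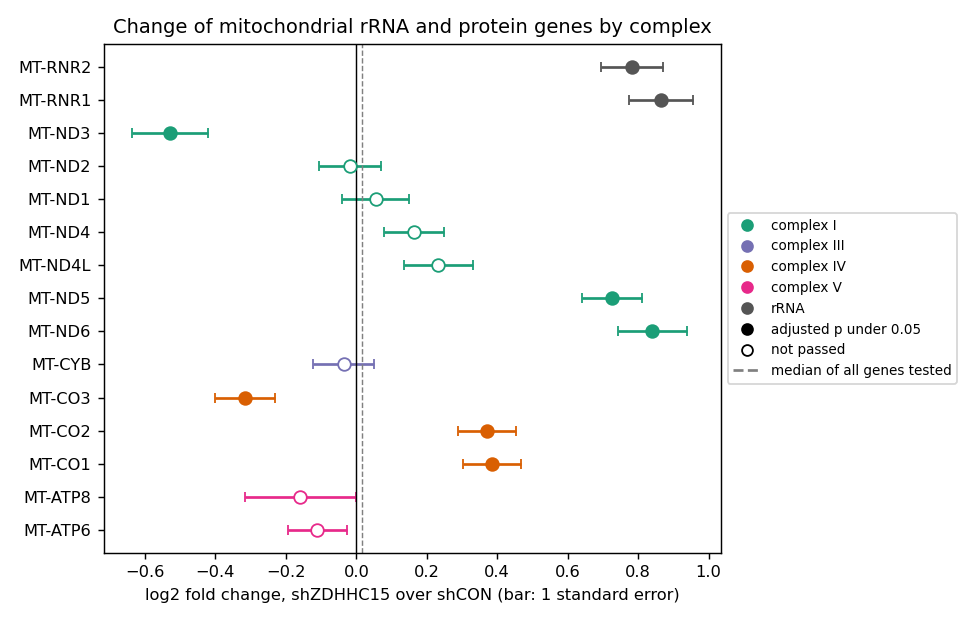
Log2 fold change of each mitochondrial rRNA and protein gene, shZDHHC15 over shCON, grouped by rRNA and by complex, with a bar of 1 standard error and the call of the test (n = 2 samples per group). Both rRNAs, MT-ND5 and MT-ND6 lie highest, at 0.73 to 0.87, and MT-CO3 and MT-ND3 lowest, at -0.32 and -0.53.

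Taken per length, the order of the RNAs changed in its middle while its ends stayed in place. In shCON, MT-CO2 was highest at 3835 ± 22.3 CPM per kilobase (SD, n = 2), followed by MT-CO1 at 3717 ± 33.2, MT-CO3 at 2578 ± 16.7, MT-ATP6 at 2478 ± 73.3 and MT-ND4 at 2051 ± 130 CPM per kilobase. These neighbours did not overlap with one another, whereas MT-CYB at 1504 ± 6.0 overlapped with MT-ND3 at 1476 ± 239, and MT-ND3 with MT-ND2 at 1364 ± 104 CPM per kilobase. In shZDHHC15, MT-CO2 at 4957 ± 107 and MT-CO1 at 4857 ± 182 CPM per kilobase overlapped at the top, and MT-CO3 at 2071 ± 115 CPM per kilobase was at rank 5, below MT-ND4 at 2298 ± 15.9 and MT-ATP6 at 2295 ± 41.9. MT-ND3 went from rank 8, at 1476 ± 239 CPM per kilobase, to rank 11, at 1023 ± 74.8. MT-RNR2 went from 644 ± 31.8 to 1109 ± 67.2 CPM per kilobase and there overlapped with MT-ND1. The lowest 4 in both groups were MT-ND5, MT-RNR1, MT-ND6 and MT-ATP8. Over the 15 long genes, Pearson's r of the log2 fold change was 0.46 with gene length, 0.19 with GC content and -0.31 with the shCON level per length. These genes share libraries and precursors, so the coefficients are a description only.

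Among the mitochondrial protein counts alone, MT-ND6 took 0.465% and 0.511% in shCON and 0.733% and 0.814% in shZDHHC15. Complex IV genes took 49.8% and 51.1% in shCON and 54.9% and 52.8% in shZDHHC15, complex V genes 8.35% and 8.21% against 6.74% and 6.86%, and complex III 8.22% and 8.45% against 6.87% and 7.54%. In each of these shares the groups did not overlap, and the exact permutation test gave p = 0.33. Complex I genes took 33.6% and 32.3% in shCON and 31.5% and 32.8% in shZDHHC15, which overlap (exact permutation p = 0.667).

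The called protein genes are shown by their last 30 bases, because human mitochondrial genes differ in whether the stop codon is written in the DNA. In 7 of the 13 genes all 3 stop bases are encoded, and in the other 6 the coding part ends in T or TA and is completed by the poly(A) tail. The sequences are from GENCODE release 29 on GRCh38, 5′ to 3′ on the coding strand, with the encoded stop bases in capitals.

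MT-ND5 (chrM:14119-14148, plus strand): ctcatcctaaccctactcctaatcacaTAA
MT-ND6 (chrM:14149-14178, minus strand): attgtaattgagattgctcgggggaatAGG
MT-CO1 (chrM:7416-7445, plus strand): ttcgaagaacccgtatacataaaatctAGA
MT-CO2 (chrM:8240-8269, plus strand): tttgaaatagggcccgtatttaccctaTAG
MT-CO3 (chrM:9961-9990, plus strand): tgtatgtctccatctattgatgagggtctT
MT-ND3 (chrM:10375-10404, plus strand): gactacaaaaaggattagactgaaccgaaT

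The 4 protein genes that rose, MT-ND5, MT-ND6, MT-CO1 and MT-CO2, have complete stop codons, of which AGA in MT-CO1 and AGG in MT-ND6 are not stop codons in the nuclear code. Both genes that fell, MT-CO3 and MT-ND3, end in a single encoded T. Of the 7 genes with a complete stop, 4 rose and none fell, with a median log2 fold change of 0.37 and a range of -0.16 to 0.84. Of the 6 with an incomplete stop, none rose and 2 fell, with a median of -0.03 and a range of -0.53 to 0.16. Over all 13 protein genes 4 rose and 2 fell, where 21.7% of all genes tested rose and 20.3% fell. The ranges overlap, because MT-ATP8 and MT-ATP6 have complete stops and negative values. Genes were grouped by the DNA alone, and the last stop base of MT-ATP6 is also the first base of MT-CO3. This grouping was chosen after the values were seen and is given without a test.

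Of the 22 tRNA genes, which are 59 to 75 bases long, 10 passed the filter on low counts and 12 did not. Of the 10, 7 rose and 3 did not pass the test, or 6 of 8 rose without MT-TT and MT-TR, which passed the filter only through the shZDHHC15 samples. Of all genes tested, 21.7% rose. The 6 with the most counts among those that rose are shown, in the same notation, with the anticodon in capitals.

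MT-TN (asparagine, chrM:5657-5729, minus strand): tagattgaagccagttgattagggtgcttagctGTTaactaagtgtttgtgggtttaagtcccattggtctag
MT-TC (cysteine, chrM:5761-5826, minus strand): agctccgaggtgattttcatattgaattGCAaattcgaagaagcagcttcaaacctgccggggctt
MT-TP (proline, chrM:15956-16023, minus strand): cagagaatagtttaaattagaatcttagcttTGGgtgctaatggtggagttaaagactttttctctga
MT-TY (tyrosine, chrM:5826-5891, minus strand): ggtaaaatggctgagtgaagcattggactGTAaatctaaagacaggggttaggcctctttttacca
MT-TG (glycine, chrM:9991-10058, plus strand): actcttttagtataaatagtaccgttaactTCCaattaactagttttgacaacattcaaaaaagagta
MT-TH (histidine, chrM:12138-12206, plus strand): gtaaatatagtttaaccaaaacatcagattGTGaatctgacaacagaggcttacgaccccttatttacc

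Genes of the light-strand tRNAs held most of the counts. Strand here is that of the gene, because whether counting used the strand is not given in the sources used here. Reads from RNA of the opposite strand therefore cannot be told apart from reads of the tRNA. Counts on a tRNA gene also do not separate the excised tRNA from precursor RNA that still contains it. MT-TN, the asparagine tRNA, had 522 and 548 counts in shCON and 1279 and 1379 in shZDHHC15, and rose with a log2 fold change of 1.19 (SE 0.111, adjusted p = 1.08e-06). MT-TC, the cysteine tRNA next to it, had 408 and 451 counts in shCON and 1005 and 1103 in shZDHHC15, and rose with a log2 fold change of 1.17 (SE 0.12, adjusted p = 2.84e-06). In both, each shZDHHC15 sample exceeded each shCON sample by more than the spread within the groups. The 31 bases between them hold the origin from which light-strand DNA synthesis starts. The pair took 65.4% and 71.7% of tRNA counts in shCON and 75.2% and 75.0% in shZDHHC15 (exact permutation p = 0.33).

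MT-TP, the proline tRNA, had 273 and 223 counts in shCON and 384 and 453 in shZDHHC15 (log2 fold change 0.63, SE 0.141, adjusted p = 0.00236). MT-TY, the tyrosine tRNA, which shares 1 base with MT-TC, had 44 and 46 counts against 84 and 88 (log2 fold change 0.81, SE 0.247, adjusted p = 0.0162), and it did not pass without shCON sample 1 (0.69, adjusted p = 0.0900) or by DESeq2 (adjusted p = 0.0852). All 4 light-strand tRNAs tested therefore rose. Of the heavy-strand tRNAs, 6 were tested and 3 rose, or 2 of 4 without MT-TT and MT-TR, where 21.7% of all genes tested rose. A difference between the strands was not tested. The median log2 fold change was 0.99 for the light-strand tRNAs tested and 1.17 for the heavy-strand ones, or 0.77 without MT-TT and MT-TR. Counts on heavy-strand tRNA genes summed to 120 to 281 per sample, against 1259 to 3037 on light-strand ones. MT-TG, the glycine tRNA between MT-CO3 and MT-ND3, had 26 and 16 counts in shCON and 66 and 49 in shZDHHC15 (log2 fold change 1.33, SE 0.343, adjusted p = 0.00622), although the protein genes on both its sides fell. MT-TH, the histidine tRNA downstream of MT-ND4, had 22 and 14 counts against 62 and 53 (log2 fold change 1.55, SE 0.339, adjusted p = 0.00205). MT-TT, the threonine tRNA, had only 3 and 2 counts in shCON and 10 and 13 in shZDHHC15. Its summed counts, scaled by library size, were 4.22 times higher in shZDHHC15 (95% exact interval 1.57 to 14.2, counting error only), with an adjusted p of 0.0282 that DESeq2 (0.179) and every fit leaving out 1 sample did not reach.

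MT-TL1, one of the leucine tRNAs, had 71 and 51 counts in shCON and 68 and 87 in shZDHHC15 (log2 fold change 0.22, adjusted p = 0.506). MT-TR, the arginine tRNA, had 10 and 12 counts against 25 and 24 (1.02, adjusted p = 0.0693), and MT-TL2, the other leucine tRNA, 17 and 7 in both groups (-0.12, adjusted p = 0.889). Between the groups, MT-TL1 and MT-TL2 overlapped and MT-TR did not. The 12 tRNA genes that were not tested, MT-TF, MT-TV, MT-TI, MT-TQ, MT-TM, MT-TW, MT-TA, MT-TS1, MT-TD, MT-TK, MT-TS2 and MT-TE, summed to 26 and 24 counts in shCON and 39 and 53 in shZDHHC15. Only for MT-TW and MT-TV did the counting interval of the ratio exclude equal levels: MT-TW, the tryptophan tRNA, had 1 and 1 counts against 12 and 9 (ratio 9.64, 95% interval 2.36 to 84.8), and MT-TV, the valine tRNA between the rRNAs, had 2 and 3 against 7 and 16 (ratio 4.22, interval 1.57 to 14.2). These 2 were named after their values were seen. A difference in the other 10 was not detectable at this depth.

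**Figure D3:**
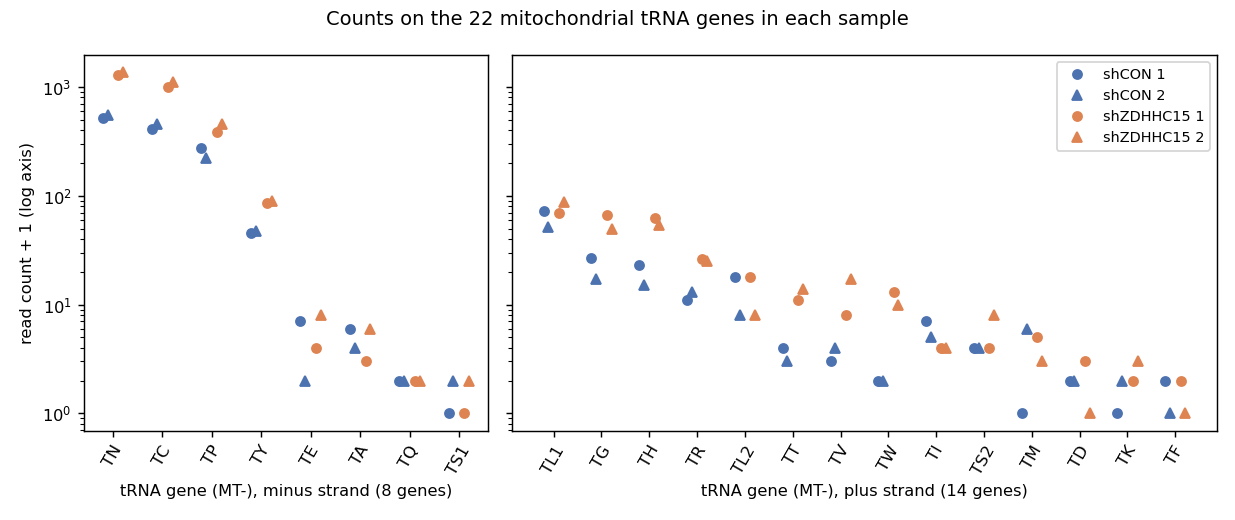
Read counts plus 1 (log axis) on the 22 mitochondrial tRNA genes, in 1 panel for the minus strand (light-strand transcript) and 1 for the plus strand (heavy-strand transcript), with 1 point per sample. MT-TN and MT-TC reach 1379 and 1103 counts, while most heavy-strand tRNAs lie under 30 counts in every sample.

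The tRNAs together took 0.353% and 0.383% of mitochondrial counts in shCON and 0.646% and 0.657% in shZDHHC15 (exact permutation p = 0.33). By strand of the gene, light-strand tRNAs made up 88.5% and 91.4% of the tRNA counts in shCON and 90.8% and 91.8% in shZDHHC15 (exact permutation p = 0.667). This share overlapped between the groups. The part of RNA selection in the rRNA and tRNA values was not tested. A list of 109 other genes held 19 for RNAs without a poly(A) tail and 90 histone genes taken by symbol. Whether the RNA of each histone gene lacks the tail was not checked. The list gave 483 and 581 CPM in shCON and 614 and 468 CPM in shZDHHC15, which overlap, with 44 to 48 of the genes at 0 per sample. Of the 34 tested, 5 rose and 6 fell, with a median log2 fold change of -0.01, where 21.7% of all genes tested rose and 20.3% fell. The most abundant single one, RN7SL2, had 1258 and 2360 counts in shCON and 3682 and 1464 in shZDHHC15. It varied widely within both groups and was the only gene tested of the 19 that are not histone genes.

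Nuclear genes named as copies of the members could share reads with them where they are nearly identical. Of 407 such genes listed, 4 were tested and 2 of them rose, where 21.7% of all genes tested rose. Identity was measured for the 4 tested only. MTATP6P1 on chromosome 1, 98.5% identical to MT-ATP6, had 2712 and 2554 counts in shCON and 2548 and 3050 in shZDHHC15, and MTND2P28, 98.4% identical to MT-ND2, had 2253 and 1854 against 2060 and 2305. Both overlapped between the groups, as did MT-ND2, whereas MT-ATP6 was lower in both shZDHHC15 samples. MTCO1P12, 98.7% identical to MT-CO1, had 249 and 250 counts against 357 and 379 (log2 fold change 0.44, adjusted p = 0.0199), and MTCO2P12, 98.2% identical to MT-CO2, had 15 and 19 against 60 and 61 (1.70, adjusted p = 0.000838). These copies rose in the direction of the mitochondrial genes they resemble, MT-CO1 at 0.39 and MT-CO2 at 0.37, and MTCO2P12 rose by more than MT-CO2. How multiply aligned reads were treated is not given in the sources used here. The 407 copies summed to 289 and 279 CPM in shCON and 275 and 301 CPM in shZDHHC15.

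The nuclear partners of the same complexes mostly fell. Of 75 nuclear subunit genes of complexes I, III, IV and V tested, 50 fell and 2 rose, with a median log2 fold change of -0.38. Of all genes tested, 20.3% fell and 21.7% rose. In complex I, 21 of 37 fell and 1 rose (median -0.36). NDUFC1 went from 36.3 ± 0.866 CPM in shCON to 21.1 ± 1.69 CPM in shZDHHC15 (SD, n = 2, log2 fold change -0.78, adjusted p = 0.000133), and NDUFA1 (-0.69, adjusted p = 0.00199) and NDUFA11 (-0.64, adjusted p = 0.0103), accessory subunits like it, also fell. NDUFS1, the large iron-sulphur subunit, rose from 63.3 ± 3.86 to 83.4 ± 3.19 CPM (0.40, adjusted p = 0.00571). In complex III, 6 of 9 fell and 1 rose (median -0.39). CYC1, cytochrome c1, went from 282 ± 30.5 to 181 ± 8.04 CPM (-0.64, adjusted p = 0.000119), UQCR11 and UQCRH changed by -0.57 and -0.49, and UQCRC2, a core protein, by 0.28 (adjusted p = 0.0471).

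In complex IV, 9 of 11 nuclear subunit genes tested fell and none rose (median -0.38), with COX7A2 at -0.79 (adjusted p = 2.29e-05), COX8A at -0.70 (adjusted p = 9.96e-05) and COX6A1 at -0.61 (adjusted p = 0.000562) the largest. COX7A2 went from 121 ± 10.9 to 69.6 ± 0.102 CPM. In complex V, 14 of 18 fell and none rose (median -0.44), led by ATP5ME at -0.78, ATP5MG at -0.75 and ATP5MD at -0.74, of which ATP5MD went from 87.2 ± 6.84 to 52.0 ± 1.13 CPM (adjusted p = 5.17e-05). Within complex IV, MT-CO1 and MT-CO2 thus rose in the samples in which most nuclear subunits fell, and MT-CO3 lay among the falling values. Mitochondrial and nuclear lists were compared by these counts and medians only, where 20.3% of all genes tested fell and 21.7% rose.

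**Figure D4:**
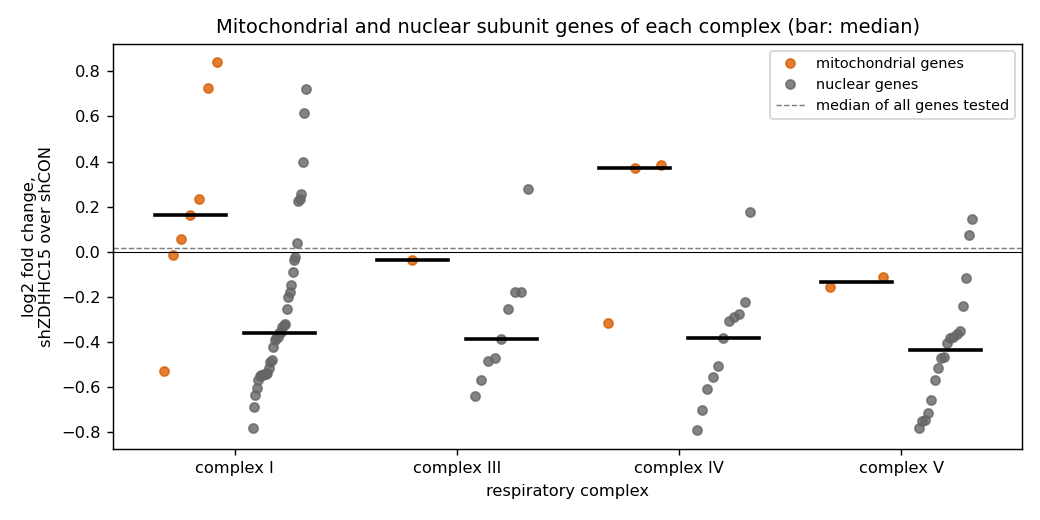
Log2 fold change, shZDHHC15 over shCON, of the mitochondrial and of the nuclear subunit genes tested in complexes I, III, IV and V, with 1 point per gene and a bar at the median of each set. The nuclear medians lie between -0.36 and -0.44, and the mitochondrial medians between -0.13 for complex V and 0.37 for complex IV.

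Of 9 genes for transcribing the mitochondrial chromosome, 3 fell and 1 rose, with a median log2 fold change of -0.05, where 20.3% of all genes tested fell and 21.7% rose. TFB2M, which opens the promoter with the polymerase, went from 50.8 ± 1.24 CPM to 27.9 ± 2.66 CPM (SD, n = 2, log2 fold change -0.86, SE 0.116, adjusted p = 3.50e-05). POLRMT, the RNA polymerase itself, went from 108 ± 9.76 to 71.0 ± 2.34 CPM (-0.60, SE 0.102, adjusted p = 0.000283), and TFAM, which packages the DNA and starts transcription, from 57.8 ± 2.03 to 46.0 ± 3.42 CPM (-0.33, SE 0.108, adjusted p = 0.0238). These 3 act together at initiation. MTERF4, a member of the termination-factor family that acts in ribosome assembly, rose by 0.49 (adjusted p = 0.0139).

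Of 36 genes for processing, modifying and degrading mitochondrial RNA, 2 rose and 10 fell, with a median log2 fold change of -0.11, where 21.7% of all genes tested rose and 20.3% fell. PNPT1, the polynucleotide phosphorylase that degrades mitochondrial RNA and is also an interferon-induced gene, had 1244 and 1004 counts in shCON and 2705 and 2723 in shZDHHC15. Its log2 fold change was 1.15 (SE 0.103, adjusted p = 6.29e-07), the largest rise in this list. PTCD3, a pentatricopeptide protein of the ribosome, rose by 0.38 (adjusted p = 0.0199). Among those that fell, PUS1, a pseudouridine synthase of tRNAs, changed by -0.86 (adjusted p = 7.37e-05), REXO2, a nuclease of short RNAs, by -0.70 (adjusted p = 0.000152), and SLIRP, which stabilises messenger RNAs together with LRPPRC, by -0.63 (adjusted p = 0.000784). LRPPRC itself measured 107 ± 18.5 and 127 ± 9.18 CPM (0.25, adjusted p = 0.102).

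Of 21 genes for keeping mitochondrial DNA, 4 rose and 4 fell (median 0.02), close to the shares of all genes tested. Those that fell most were SLC25A4, the ADP/ATP carrier, at -0.80 (adjusted p = 3.99e-05), the helicase TWNK at -0.55 (adjusted p = 0.000889) and the deoxyguanosine kinase DGUOK at -0.42 (adjusted p = 0.0103). TYMP, which breaks down thymidine, rose by 0.65 (adjusted p = 0.000106), the nuclease DNA2 by 0.48 (adjusted p = 0.0105) and the exonuclease MGME1 by 0.46 (adjusted p = 0.00495). Of 11 regulators of mitochondrial biogenesis, 1 rose and 5 fell (median -0.32), where 21.7% of all genes tested rose and 20.3% fell. MYC went from 661 ± 32.9 to 355 ± 46.1 CPM (-0.90, adjusted p = 6.15e-06), and NRF1 (-0.62, adjusted p = 0.00227) and GABPB1 (-0.51, adjusted p = 0.00578), subunits of factors that act on genes of the respiratory chain, also fell. PPARGC1B, a coactivator of the same programme, rose from 6.89 ± 1.35 to 16.6 ± 1.01 CPM (1.26, adjusted p = 4.40e-05). Of 8 genes that sense RNA or DNA of mitochondrial or viral origin, 7 rose (median 2.29), against 21.7% of all genes tested. The sensors of double-stranded RNA DHX58 at 3.61, IFIH1 at 3.09 and DDX58 at 2.94 led these. The adaptor MAVS measured 323 ± 3.39 and 309 ± 17.8 CPM (-0.07, adjusted p = 0.587).

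How a member's change was read depended on what the libraries were scaled to. With library size taken as the sum of the 37 mitochondrial genes, the median of all genes tested moved by -0.22 on the log2 scale, and values then described shares within the mitochondrial counts. Under it MT-RNR1 (0.64), MT-RNR2 (0.56), MT-ND6 (0.62) and MT-ND5 (0.51) stayed higher and MT-ND3 (-0.75) and MT-CO3 (-0.54) lower. MT-CO1 (0.17, adjusted p = 0.179) and MT-CO2 (0.15, adjusted p = 0.211) no longer passed, and MT-ATP6 (-0.33, adjusted p = 0.0073) and MT-CYB (-0.26, adjusted p = 0.0360) passed as lower. This scaling shifts every gene by nearly the same amount, so it bears on the sign and the call of a gene and not on the order of genes.

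**Figure D5:**
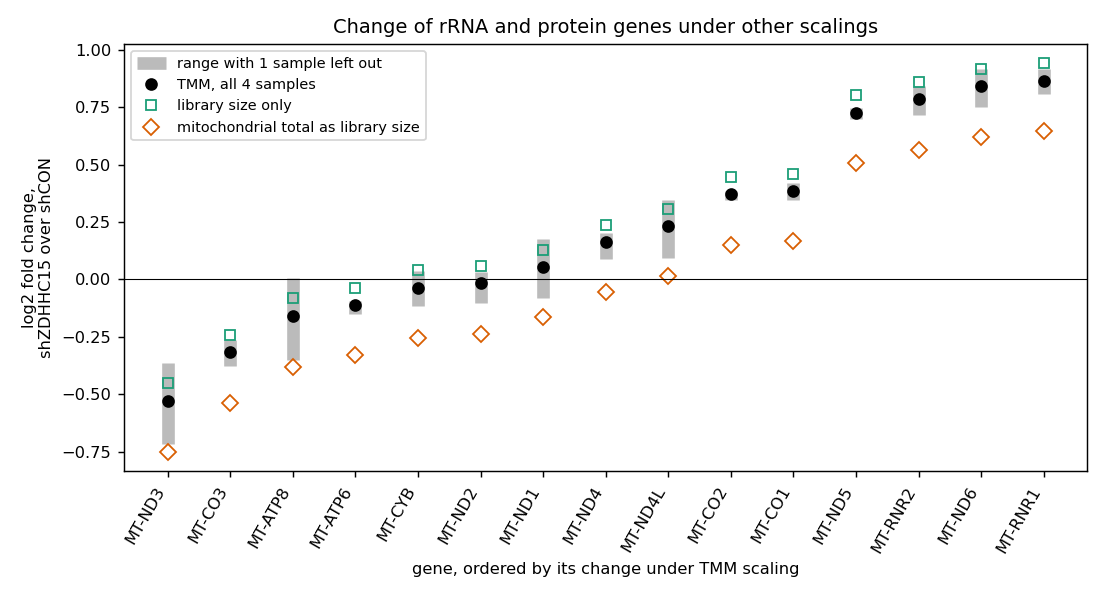
Log2 fold change, shZDHHC15 over shCON, of the 2 rRNA and 13 protein genes under TMM scaling (filled), library size only (squares) and the mitochondrial total as library size (diamonds), with grey bars for the range of values with 1 sample left out and genes ordered by their TMM value. The points of each gene shift by nearly the same amount between scalings, and MT-ND1 moves from 0.06 under TMM to -0.17 with the mitochondrial total.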

How the data were processed

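The authors deposited raw read counts per gene for 58735 genes in 4 samples, not normalized, and all 4 columns were used. The submitters' processing notes name HISAT2, StringTie, SAMtools and hg38 without versions or roles. The counting tool, the use of strand and the selection of RNA are not given in the sources used here. All 37 mitochondrial genes matched GENCODE release 29 by start, end and strand. The members and lists were chosen with earlier results of these data known.

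Genes passing filterByExpr (15817) were tested with edgeR 4.0.16 in R 4.3.3 (limma 3.58.1): TMM factors of 0.962 to 1.03, glmQLFit with legacy = FALSE, glmQLFTest on the group alone, and Benjamini-Hochberg adjustment over all genes tested. Every adjusted p in the text is from this quasi-likelihood test unless DESeq2 1.42.0 is named. Single values were compared by an exact two-sided permutation test over samples. All members are given; of the tRNA genes, those that passed and the 3 with most counts were named first. Nuclear lists give up to 3 passing genes per direction, and LRPPRC, MAVS and RN7SL2 were added after their values were seen. Of the symbols written, PRORP, STING1 and MB21D1 were not found under those names, and 1 leukocyte marker is not reported here. Within a group, counts differed by a chi-square per degree of freedom of 8.32 (shCON) and 6.79 (shZDHHC15), so no sample was counted as a copy of another. Over the mitochondrial genes alone these values were 33.4 (shCON) and 38.5 (shZDHHC15).

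Alternatives were DESeq2 size factors, upper-quartile factors, library size only, scaling from nuclear genes, library size as the mitochondrial total, no filter, a filter of 10 counts per sample, the earlier edgeR dispersion (legacy = TRUE), DESeq2, a replicate block and leaving out each sample. No batch is given in the labels.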

Additional observations from a re-analysis of the deposited data

How the results depend on the processing

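Of the alternative values for 22 mitochondrial genes, 279 kept their direction and side of the threshold, 13 no longer passed, 6 newly passed and 9 changed sign. Both rRNAs, MT-ND5, MT-ND6, MT-ND3, MT-TN, MT-TC, MT-TP, MT-TG and MT-TH passed in the same direction under every alternative and without any one sample.

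With the mitochondrial total as library size, 2 protein genes rose and 4 fell, the protein median was -0.17 and the tRNA median 0.88, and MT-ND1 (-0.17) and MT-ND4 (-0.0554) changed sign. With library size only, MT-ND2 (0.0570) and MT-CYB (0.0397) changed sign, and MT-ND4L (0.31, adjusted p = 0.0263) and MT-ND4 (0.24, adjusted p = 0.0228) passed. With no filter, 2282 of all genes rose and the tRNA median was 0.59, as genes with few counts entered. Of protein-coding counts alone, the mitochondrial protein share was higher by 0.382 percentage points in shZDHHC15, against 0.481 for all 37 genes in all counts.

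Leaving out each sample in turn, which leaves 1 sample in a group that is assumed to vary like the others, gave 1 to 2 protein genes that fell and a protein median of -0.0551 to 0.17, the lowest without shZDHHC15 sample 2 and the highest without shZDHHC15 sample 1. The light-strand share of tRNA counts differed by -0.125 to 2.73 percentage points, negative without shCON sample 1. Values ranged from -0.0820 to 0.17 for MT-ND1, -0.10 to 0.0323 for MT-ND2, -0.35 to 0.0041 for MT-ATP8 and -0.12 to 0.0353 for MT-CYB. The causes of these changes were not tested.

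Deviations of same-numbered samples correlated at 0.0344 over 15817 genes, but at 0.665 over the 25 mitochondrial genes tested. Not every member followed this. MT-TL2 had 17 and 7 counts in both groups, while MT-ND1 deviated in opposite directions, at 972 and 928 CPM in shCON and 901 and 1073 CPM in shZDHHC15. How far the coefficient rests on single genes with few counts was not tested. The main fit used the group alone. With the replicate number as a block, MT-ND4L (0.24, adjusted p = 0.0292) also passed, giving 5 protein genes that rose and 2 that fell. Depth limited the tRNAs, of which 12 were too low to test.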
